A study of Mus musculus with 18 samples.

Results

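The 40 genes described here form a list of cell cycle and replication genes, of which 20 act in or around S phase and 20 in mitosis. All 40 were found among the 24062 genes counted in the series, and all 40 were among the 12140 genes that passed the filter on low counts and were tested. The list is by gene name and uses no cutoff on a measured value, but it was chosen with earlier results of these data known. Its counts beside shares of all genes are therefore not those of a list chosen independently of the data.

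The series measured polyA RNA in NIH3T3 cells, a mouse embryonic fibroblast line, and in NIH3T3-mCherry-mTRIM21 cells, a derived line with a transgene for mouse TRIM21 tagged with mCherry, a red fluorescent protein. These are called the WT line and the TRIM21 line below. TRIM21 is a ubiquitin ligase that binds antibodies in the cytosol. Cells of each line were electroporated with 2 pulses of 20 ms at 1400 V in the presence of 7.5 µg of an antibody (IgG) or of bovine serum albumin (BSA), or with PBS alone, and RNA was taken 16 h later. Both lines were grown in DMEM with calf serum, so every sample, the PBS samples included, was electroporated and serum-fed. With 3 samples for each pairing of line and treatment, there are 6 groups. The sample titles hold the numbers 10, 11 and 14, each once in every group, and the labels do not say what these numbers stand for. The TRIM21 line is a single derived line, and the promoter that drives the fusion is not given in the sources used here. Nothing in the labels says that the samples came from separate cultures, so p-values measure the spread between these samples, which may be technical.

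A dividing cell copies its DNA in S phase and separates the copies in mitosis. The genes for the replication machinery and for nucleotide supply are transcribed mainly around the start of S phase, under the E2F transcription factors, whereas those for the mitotic cyclins, kinases, spindle motors and kinetochore proteins are transcribed mainly in G2 and mitosis, through promoter elements called CHR and CCAAT. NIH3T3 cells are a standard model for this control because serum sets whether they divide. In RNA from a whole culture, a change in the share of cells in a phase and a change in RNA per cell cannot be told apart.

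Gene-assigned reads ranged from 19509017 to 29766433 per sample, and the share of reads over no annotated gene from 13.1% to 18.8%. Values below are CPM, read counts scaled to a common library size after TMM normalization. Trim21 had 984 to 1188 CPM in the 9 samples of the TRIM21 line and 6.54 to 9.73 CPM in the 9 WT samples, and reads of the introduced fusion may be among them. The fibroblast label was checked against 10 markers, of which 9 passed the filter with summed levels of 16485 to 32281 CPM, while Fap stayed under 1 CPM in every sample. Of 13 markers of leukocytes, epithelium, endothelium, muscle and neurons, 10 stayed under 1 CPM in every sample, among them Myod1 and Sox10 at 0, and the summed level of the list was 12.5 to 28.4 CPM. The TRIM21 line PBS sample numbered 11 stood apart: it was the highest of the 18 samples for all 20 S-phase genes and for 15 of the 20 mitotic genes. The WT line PBS sample numbered 14 was the lowest for 14 S-phase genes and 4 mitotic genes. The fibroblast markers of the TRIM21 line PBS sample numbered 11 were the lowest of the 18 samples, at a mean deviation of log2 CPM of -0.83 from the 18-sample mean where the next was -0.15, and the 3 tested markers of other cell types were the highest, at 0.74. The part of these shifts in the results was not tested. Set medians are given with and without this sample where it moves them by over 1.5 times or turns their direction, as are the main counts.

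All 40 genes were transcribed in both lines. Divided by the length of the longest annotated transcript, S-phase genes had median levels over the 18 samples of 9.16 CPM per kb for Gins2, a subunit of the replicative helicase complex, to 117 CPM per kb for Pcna, the sliding clamp of DNA polymerases, with a median of 45.2 CPM per kb. Mitotic genes ran from 3.90 CPM per kb for Cenpe, a kinetochore motor, to 91.7 CPM per kb for Top2a, the topoisomerase that untangles DNA, with a median of 22.0 CPM per kb. Another annotated protein-coding gene overlapped 6 of the S-phase and 4 of the mitotic genes. The libraries keep the strand, but the strand setting used in counting is not given in the sources used here, so reads from such pairs may have been shared.

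The promoters, which the list did not use, held different elements in the 2 sets. RefSeq windows on GRCm38.p6, from 250 bases before to 50 bases after a start, were found for 17 S-phase genes (19 windows) and 16 mitotic genes (16 windows). The E2F element, searched on both strands as TTNNCGC with CG, GG, CC or GC in place of NN, was in 63.2% of the S-phase windows and 18.8% of the mitotic windows, against 16.8% of the windows of all tested genes and 9.57% of all windows. The CHR element, searched on both strands as TTTGAA or TTCGAA, was in 15.8% of the S-phase and 75% of the mitotic windows, against 13.5% for tested genes and 19.2% for all. The CCAAT box was in 73.7% and 87.5%, against 38.3% and 37.4%. Matches on opposite strands can overlap and are counted separately. A match is a description of these letters and not evidence of binding. Of the promoters with most matches, 3 are printed below to show the elements of each set: Mcm6, a subunit of the replicative helicase (chr1:128359706-128359955, minus strand, 4 E2F and 2 CCAAT matches), Top2a (chr11:99024190-99024439, minus strand, 4 CHR and 6 CCAAT matches) and Cdk1, the mitotic kinase, which holds all 3 kinds (chr10:69352939-69353162, minus strand, 2 E2F, 1 CHR and 3 CCAAT matches). Each is the part of the window before the annotated gene start, written 5′ to 3′ on the gene's strand, with matches on either strand in capitals.
Mcm6: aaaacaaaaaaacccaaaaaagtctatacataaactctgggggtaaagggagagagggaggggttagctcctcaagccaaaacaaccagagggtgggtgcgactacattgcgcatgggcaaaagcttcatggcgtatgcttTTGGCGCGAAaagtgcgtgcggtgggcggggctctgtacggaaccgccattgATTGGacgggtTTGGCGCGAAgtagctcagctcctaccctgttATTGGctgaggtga
Top2a: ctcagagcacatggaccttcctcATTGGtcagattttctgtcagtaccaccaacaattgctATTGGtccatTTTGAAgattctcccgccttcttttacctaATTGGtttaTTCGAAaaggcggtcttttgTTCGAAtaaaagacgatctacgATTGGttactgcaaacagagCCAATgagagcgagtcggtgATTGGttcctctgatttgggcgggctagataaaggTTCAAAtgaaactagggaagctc
Cdk1: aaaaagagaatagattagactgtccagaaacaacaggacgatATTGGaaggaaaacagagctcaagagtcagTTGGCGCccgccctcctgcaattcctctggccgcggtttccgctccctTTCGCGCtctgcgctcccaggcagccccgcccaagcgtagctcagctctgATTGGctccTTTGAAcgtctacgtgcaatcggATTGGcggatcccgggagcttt

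Members passed the test between samples with different title numbers. The mitotic genes were higher in the 6 samples numbered 11 than in those numbered 10 or 14, in both lines, whereas the S-phase genes were lower in the 6 samples numbered 14 than in those numbered 10 or 11. All 20 mitotic genes and 7 of 20 S-phase genes passed the test over the 3 numbers (quasi-likelihood F test of edgeR with group and number in the model, p adjusted over all genes by Benjamini-Hochberg, threshold 0.05; written below as edgeR adjusted p), against 11.2% of all 12140 genes tested. The S-phase count ran from 1 to 9 over the 18 fits that left out 1 sample, and was 1 without the TRIM21 BSA sample numbered 14 or the WT BSA samples numbered 11 or 14. As a set, by their mean deviation of log2 CPM from the 18-sample mean, the mitotic genes lay between 0.046 and 0.64 in the samples numbered 11, between -0.25 and 0.068 in those numbered 10 and between -0.24 and -0.067 in those numbered 14. The ranges of numbers 11 and 14 do not overlap, and those of 11 and 10 overlap only because the TRIM21 line PBS sample numbered 10, at 0.068, lay above the lowest 2 samples numbered 11 had, at 0.046 and 0.058. The S-phase genes lay between -0.12 and 0.59 in number 11, between -0.034 and 0.16 in number 10 and between -0.43 and 0.046 in number 14, and these ranges overlap.

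**Figure D1:**
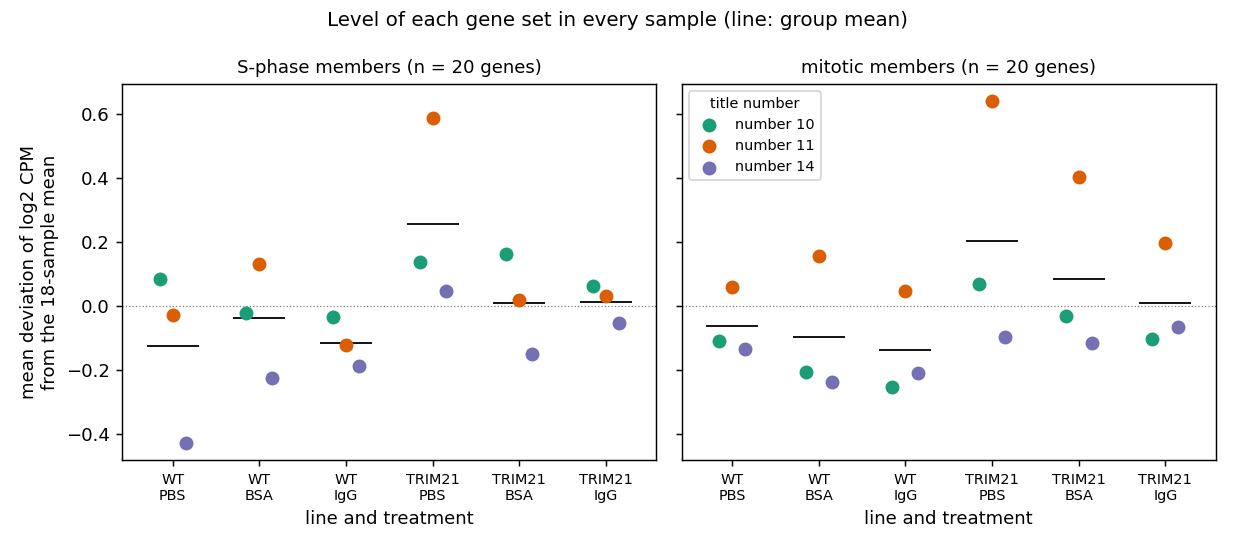
Mean deviation of log2 CPM from the 18-sample mean (y axis) for the 20 S-phase and the 20 mitotic genes in every sample, by line and treatment (x axis), with points coloured by title number and bars at group means (n = 3). In each of the 6 groups the sample numbered 11 is the highest for the mitotic genes, and the TRIM21 line PBS sample numbered 11 is the highest of all, at 0.59 for the S-phase genes and 0.64 for the mitotic genes.

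Of the genes for nucleotide supply, Rrm2 (chr12:24708241-24714146), the regulated subunit of ribonucleotide reductase, had a lowest, median and highest value of 163, 185 and 203 CPM in the samples numbered 10, of 131, 161 and 237 CPM in those numbered 11 and of 108, 124 and 139 CPM in those numbered 14. Every sample numbered 14 was below every sample numbered 10. The log2 difference of number 14 against 10 was -0.54 (SE 0.086, n = 6 each, edgeR adjusted p = 0.00249), with number 14 lower in 6 of 6 groups. Tyms (chr5:30058202-30073617), the thymidylate synthase, had 63.0, 66.5 and 73.4 CPM in number 10, 66.9, 72.4 and 106 CPM in number 11 and 55.1, 57.6 and 68.3 CPM in number 14. It was the single S-phase gene with number 11 above number 10 in all 6 groups, although that difference did not pass the test (log2 0.18, SE 0.074, edgeR adjusted p = 0.202), while number 14 against 11 did (log2 -0.36, adjusted p = 0.0153).

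Of the replication factors, Pcna (chr2:132249162-132253314) had 164, 206 and 215 CPM in number 10, 142, 178 and 253 CPM in number 11 and 132, 149 and 205 CPM in number 14. Cdc45 (chr16:18780447-18811987), which joins the MCM ring to form the active helicase, had 64.6, 69.4 and 78.3 CPM, then 62.0, 68.0 and 105 CPM, then 54.4, 55.2 and 68.4 CPM in the same order. For both genes the samples numbered 14 were mostly at the low end while the ranges overlapped. Number 14 against 10 gave log2 differences of -0.36 for Pcna (SE 0.084, edgeR adjusted p = 0.0176) and -0.28 for Cdc45 (SE 0.075, adjusted p = 0.0307). Mcm5 (chr8:75109569-75128439), another subunit of the MCM helicase, had 237, 269 and 302 CPM in number 10, 216, 249 and 384 CPM in number 11 and 149, 223 and 259 CPM in number 14. It was lower in number 14 than in number 10 in 6 of 6 groups but did not pass the test (log2 -0.31, SE 0.10, edgeR adjusted p = 0.0735).

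Ccne2 (chr4:11191351-11204779), cyclin E2 of the S-phase entry kinase, had 52.5, 64.4 and 73.5 CPM in number 10, 52.7, 56.9 and 90.2 CPM in number 11 and 43.8, 49.8 and 58.2 CPM in number 14. Slbp (chr5:33634952-33652574), which binds histone mRNAs, had 102, 110 and 116 CPM, then 97.0, 108 and 134 CPM, then 87.6, 94.2 and 105 CPM. Both were lower in number 14 than in number 10 in 6 of 6 groups, by log2 differences of -0.36 (SE 0.085) and -0.22 (SE 0.058), with edgeR adjusted p-values of 0.0194 and 0.0318. E2f1 (chr2:154559407-154569892), a transcription factor of S-phase entry, had 68.2, 71.9 and 73.5 CPM in number 10, 59.6, 74.6 and 93.5 CPM in number 11 and 48.4, 69.2 and 80.2 CPM in number 14. Its medians differed little and none of its differences passed the test (number test, edgeR adjusted p = 0.636).

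Over the set, number 14 was below number 10 for 20 of 20 S-phase genes with a median log2 difference of -0.21, against -0.0021 over all genes tested. Those that fell were Rrm2, Pcna, Ccne2, Cdc45 and Slbp, 5 of 20, where 4.92% of all genes were called lower. Number 14 was below number 11 for 20 of 20 as well, at a median of -0.27, and 7 of 20 fell, where 3.21% of all genes were called lower. These were Tyms, Rrm2, Cdc45, Rrm1, which is the other subunit of ribonucleotide reductase, Mcm6, Slbp and Cdc6, a loader of the MCM ring. Number 11 against 10 gave 12 genes higher and 8 lower, a median of 0.028, and 0 calls by edgeR with 2 genes at an unadjusted p under 0.05 (Tyms and Cdc6). Leaving out the TRIM21 line PBS sample numbered 11, it gave 7 higher and 13 lower, a median of -0.041. In the same fit number 14 against 11 gave 1 call, where 1.86% of all genes were called, and a median of -0.19. The 3 comparisons share samples and are not independent. The counts were fragile: over the 18 fits that left out 1 sample they ran from 1 to 8 for number 14 against 10 and from 0 to 9 for number 14 against 11, with 0 after leaving out any of the TRIM21 line samples numbered 14 after PBS or BSA or the WT BSA samples numbered 11 or 14. With DESeq2 size factors or an additive model of line and treatment the count for number 14 against 11 was 4, and with the DESeq2 test it was 11.

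**Figure D2:**
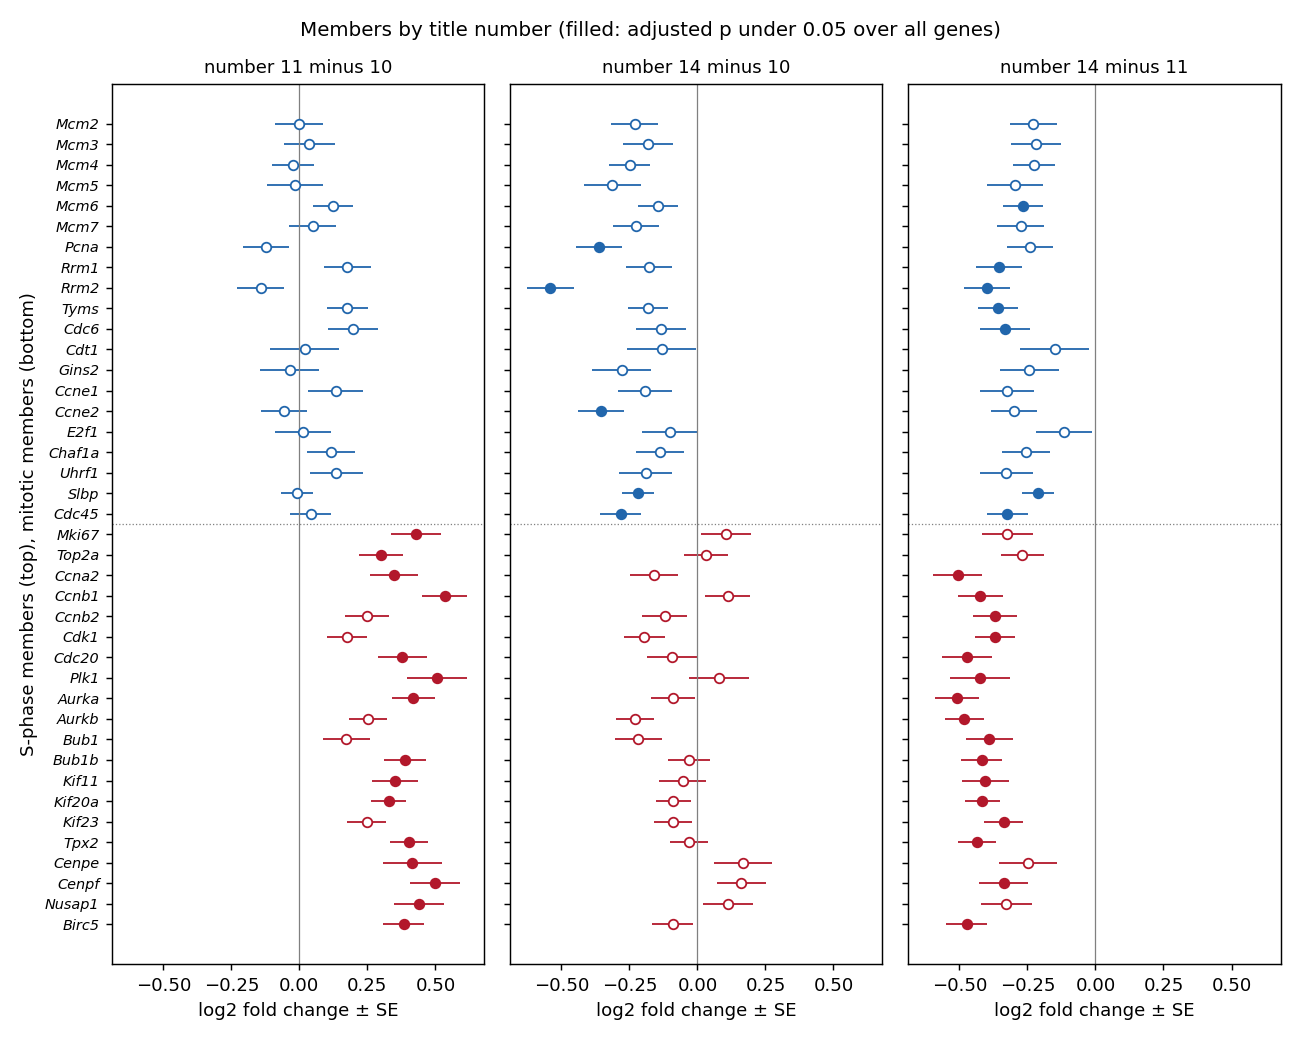
Log2 fold change ± SE (x axis) of each of the 40 genes (y axis, S-phase above the dotted line, mitotic below it) between title numbers, n = 6 samples per number. Filled points had an adjusted p under 0.05 over all genes tested: 0 S-phase and 15 mitotic genes for number 11 minus 10, 5 and 0 for number 14 minus 10, and 7 and 16 for number 14 minus 11.

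Among the mitotic genes, Ccnb1 (chr13:100778650-100786570), cyclin B1 of the kinase that drives entry into mitosis, had a lowest, median and highest value of 16.6, 18.7 and 21.2 CPM in number 10, of 22.9, 25.9 and 37.7 CPM in number 11 and of 19.5, 19.8 and 22.1 CPM in number 14. Every sample numbered 11 lay above every sample with the other two numbers. The log2 difference of number 11 against 10 was 0.54 (SE 0.083, n = 6 each, edgeR adjusted p = 0.00262). Ccnb1 is near the low end of the set per length, at 8.44 CPM per kb.

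Of the mitotic kinases, Aurka (chr2:172356190-172370535), which acts at spindle poles, had 33.2, 35.2 and 38.6 CPM in number 10, 40.3, 43.8 and 71.1 CPM in number 11 and 29.0, 32.8 and 38.5 CPM in number 14, so that the samples numbered 11 did not overlap with the others. It rose by a log2 difference of 0.42 from number 10 to 11 (SE 0.080, edgeR adjusted p = 0.0116). Aurkb (chr11:69045647-69051664), the kinase of the chromosomal passenger complex, had 53.7, 58.3 and 65.6 CPM, then 58.1, 69.0 and 92.8 CPM, then 42.0, 50.8 and 56.5 CPM. Its samples numbered 14 were all below those numbered 11 (log2 -0.48, SE 0.071, edgeR adjusted p = 0.00367), while number 11 against 10 did not pass (log2 0.25, adjusted p = 0.0564). Plk1 (chr7:122159439-122169873), the polo-like kinase, had 20.8, 23.8 and 26.5 CPM, then 25.1, 33.2 and 47.9 CPM, then 18.1, 26.2 and 28.2 CPM, and number 11 was above number 10 in 6 of 6 groups (log2 0.51, SE 0.11, edgeR adjusted p = 0.0209).

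Of the spindle and cytokinesis genes, Tpx2 (chr2:152847964-152895321), which activates Aurora A on spindle microtubules, had the smallest p of the 40 genes over the 3 numbers (edgeR adjusted p = 0.00229). Its values were 113, 125 and 146 CPM in number 10, 145, 158 and 224 CPM in number 11 and 108, 125 and 131 CPM in number 14. The samples numbered 11 did not overlap with those numbered 14, and touched those numbered 10 at 1 sample, the TRIM21 line PBS sample with 146 CPM. The log2 difference was 0.40 for number 11 against 10 (SE 0.069) and -0.44 for number 14 against 11 (SE 0.070), with edgeR adjusted p-values of 0.00549 and 0.00556. Kif20a, a kinesin of the central spindle, had 78.0, 84.4 and 95.4 CPM, then 89.4, 102 and 138 CPM, then 74.1, 81.2 and 83.3 CPM, with log2 differences of 0.33 for number 11 against 10 and -0.42 for 14 against 11 (edgeR adjusted p = 0.0131 and 0.00524). Birc5 (chr11:117849251-117855743), survivin of the passenger complex, had 64.0, 71.9 and 85.4 CPM, then 74.4, 89.8 and 143 CPM, then 59.1, 67.7 and 80.8 CPM, with log2 differences of 0.38 and -0.47 (edgeR adjusted p = 0.0131 and 0.00541). For both genes the sample numbered 11 was the highest in all 6 groups.

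Among the common proliferation markers, Mki67 (chr7:135689784-135716361), the Ki-67 protein of dividing cells, had 190, 208 and 260 CPM in number 10, 238, 276 and 365 CPM in number 11 and 188, 225 and 270 CPM in number 14. Top2a (chr11:98992943-99024189), whose promoter is printed above, had 414, 466 and 542 CPM, then 466, 531 and 767 CPM, then 417, 475 and 517 CPM. Both rose from number 10 to 11, by log2 differences of 0.43 (SE 0.093) and 0.30 (SE 0.080), with edgeR adjusted p-values of 0.0199 and 0.0485. Their ranges overlapped, and number 14 against 11 did not pass for either gene (edgeR adjusted p = 0.0516 and 0.0615).

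**Figure D3:**
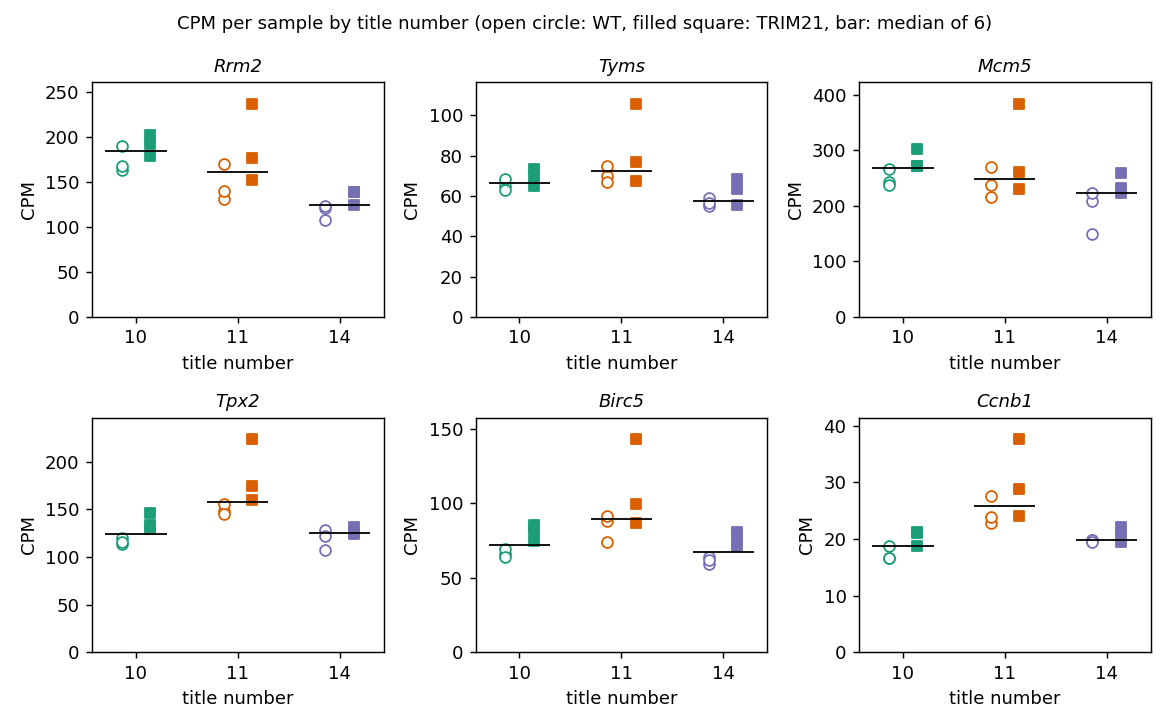
CPM (y axis, from 0) of 3 S-phase genes (Rrm2, Tyms, Mcm5) and 3 mitotic genes (Tpx2, Birc5, Ccnb1) in every sample by title number (x axis), with open circles for the WT line, filled squares for the TRIM21 line and bars at the median of 6 samples. The samples numbered 11 are the highest for Ccnb1, with a median of 25.9 CPM, and all samples numbered 14 lie below all those numbered 10 for Rrm2, with medians of 124 and 185 CPM.

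Over the mitotic set, number 11 was above number 10 for 20 of 20 genes, at a median log2 difference of 0.38 against -0.0064 over all genes tested, and 15 of 20 rose, where 1.78% of all genes were called higher and 3.8% in either direction. The 5 that did not pass were Aurkb, Kif23, Ccnb2, Cdk1 and Bub1. For 18 of 20 genes number 11 was above number 10 in all 6 groups, and for 5 (Ccnb1, Aurka, Bub1b, Cenpe and Nusap1) the 6 values of each number did not overlap. Number 14 was below number 11 for 20 of 20, at a median of -0.41, and 16 fell, where 5.23% of all genes were called in either direction. Number 14 against 10 gave 7 genes higher and 13 lower, a median of -0.071 and 0 calls by edgeR, where 8.44% of all genes were called in either direction. In that comparison 3 mitotic genes had an unadjusted p under 0.05, and the DESeq2 test called 1. Without the TRIM21 line PBS sample numbered 11, 9 mitotic genes rose from number 10 to 11, where 2.05% of all genes were called. In that fit 20 of 20 were higher in number 11, at a median of 0.29. From number 11 to 14 12 fell, where 1.86% of all genes were called. The count for number 11 against 10 was also 9 without the TRIM21 line PBS sample numbered 10, 8 without the TRIM21 IgG sample numbered 10, and 7 without the TRIM21 BSA or the WT IgG sample numbered 10. The count for number 14 against 11 was 7 without the TRIM21 PBS sample numbered 14 or the WT BSA sample numbered 11, and 10 without the WT BSA sample numbered 14. The shares of all genes in these other fits are not given here.

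For the mitotic genes between numbers 11 and 10, and for both sets between 14 and 11, the direction was the same in each line fitted alone. The S-phase genes between numbers 11 and 10 were mixed. Cdc45 had a log2 difference of 0.11 in the TRIM21 line and -0.021 in the WT line, while Tyms had 0.25 and 0.10. Between numbers 14 and 10 the S-phase genes varied by line. E2f1 had 0.022 in the TRIM21 line and -0.23 in WT, and Cdc6 -0.020 and -0.25. Rrm2 had -0.51 and -0.57, and Ccne2 -0.36 and -0.35. The median log2 difference of the mitotic genes between numbers 11 and 10 was 0.44 in the TRIM21 line and 0.28 in the WT line, with 20 of 20 genes higher in each. For number 14 against 11 it was -0.53 and -0.29, and for the S-phase genes -0.28 and -0.27, with 20 of 20 lower for both sets in both lines. With 9 samples in each fit, 0 of the 40 genes passed in either line, where 0.159% of the genes tested passed over the 3 numbers in the TRIM21 line and 0.175% in the WT line. Between pairs of numbers 0 of the 40 passed either, where for 11 against 10, 14 against 10 and 14 against 11 0%, 0.545% and 0.00838% of the genes tested passed in the TRIM21 line and 0.1%, 0.117% and 0% in the WT line. At an unadjusted p under 0.05 over the 3 numbers there were 19 mitotic and 4 S-phase genes in the TRIM21 line and 13 and 10 in the WT line. The share of all genes at that threshold is not given for these counts. Whether the number differences differed between the lines was tested in 1 model, which called 0 of 12140 genes by edgeR. At an unadjusted p under 0.05 there were 116 genes, none of them among the 40. That is fewer than this threshold gives when nothing differs, so the test was conservative. It does not show that the number differences were alike in the lines.

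Other genes of the cell cycle, from longer lists that leave out the 40, were examined in the same fits. Of 44 other mitotic genes 35 passed the test over the 3 numbers, where 11.2% of all genes did. From number 10 to 11 20 rose and 1 fell, where 1.78% of all genes were called higher. Ube2c, the ubiquitin-conjugating enzyme of the anaphase-promoting complex, rose by a log2 difference of 0.55 and Cdca3, a mitotic entry factor, by 0.46 (edgeR adjusted p = 0.00262 and 0.00268). The exception was Smc2, a core subunit of condensin, which was lower in number 11 (log2 -0.62) and in number 14 (log2 -0.78) than in number 10 (edgeR adjusted p = 0.0012 and 0.000216). Of 42 other replication genes 18 passed over the 3 numbers, and 11 fell from number 10 to 14 while 0 rose, where 4.92% of all genes were called lower. Among these were Wdhd1, a replisome scaffold (log2 -0.61), Cdc7, the kinase that fires origins (log2 -0.36), and Dut, which clears dUTP (log2 -0.34), with edgeR adjusted p-values of 0.000216, 0.00499 and 0.0116. Of 22 tested genes for G1 cyclins, CDKs, RB and E2F factors and CDK inhibitors, 8 passed over the 3 numbers and 4 rose from number 10 to 11, against the same shares of all genes. These included the repressors E2f7 and E2f8 (log2 0.41 and 0.39) and the CDK inhibitor Cdkn2c (log2 0.34), with edgeR adjusted p-values of 0.016, 0.0171 and 0.0231.

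Other measures moved with the number as well. Of the 9 tested fibroblast markers 5 passed over the 3 numbers, where 11.2% of all genes did. Their summed level was 23812 to 29551 CPM in number 10, 16485 to 27684 CPM in number 11 and 26014 to 32281 CPM in number 14. Of the 3 tested markers of other cell types, whose summed level was 15.1 to 28.4 CPM in number 11 against 16.2 to 27.7 CPM in number 10 and 12.5 to 24.5 CPM in number 14, 1 passed, Cdh5 at 0.149 to 2.12 CPM. The share of reads over no annotated gene was 13.1% to 17.0% in number 10, 15.04% to 18.3% in number 11 and 15.2% to 18.8% in number 14, and gene-assigned reads were 21268723 to 25188572, 19509017 to 24343537 and 20177507 to 29766433. The part of these measures in the differences between numbers was not tested.

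The line comparison asked whether carrying the fusion goes with another level of these genes. None of the 40 genes passed in the fit of group means, which leaves out the title number, although all 40 had a higher fitted mean in the TRIM21 line. The median log2 difference of the TRIM21 line against WT was 0.19 for the S-phase genes and 0.22 for the mitotic genes, against 0.014 over all genes tested, and 6.18% of all genes were called, 1.39% as higher. By edgeR 0 of 20 were called in each set, with 6 S-phase and 8 mitotic genes at an unadjusted p under 0.05, and the DESeq2 test called 1 S-phase gene. An effect of the fusion and other differences between these lines cannot be told apart.

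The values of the 2 lines overlapped for all 40 genes. Rrm2 had 125, 177 and 237 CPM in the TRIM21 line (lowest, median and highest of 9) and 108, 141 and 190 CPM in WT, and was higher in 9 of 9 pairs of the same treatment and number, with a log2 difference of 0.23 (SE 0.13, edgeR adjusted p = 0.314). Mcm5 had 224, 260 and 384 CPM against 149, 237 and 269 CPM, and Pcna 141, 187 and 253 CPM against 132, 164 and 209 CPM. Ccne2 had 43.8, 58.2 and 90.2 CPM against 45.9, 52.7 and 69.5 CPM, and was higher in 5 of 9 pairs, as was E2f1, at 59.6, 72.5 and 93.5 CPM against 48.4, 71.3 and 75.7 CPM. The smallest adjusted p of the S-phase genes was that of Chaf1a, the large subunit of the chromatin assembly factor, with 100.4, 109 and 158 CPM in the TRIM21 line and 72.0, 95.4 and 110 CPM in WT (log2 0.27, SE 0.086, edgeR adjusted p = 0.0732).

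In the mitotic set Birc5 had 71.5, 82.3 and 143 CPM in the TRIM21 line and 59.1, 66.3 and 91.6 CPM in WT, and was higher in 9 of 9 pairs (log2 0.32, SE 0.12, edgeR adjusted p = 0.111). Ccnb2, cyclin B2, had 10.7, 14.5 and 16.6 CPM against 9.61, 11.4 and 13.2 CPM, and was also higher in 9 of 9 pairs (log2 0.28, SE 0.099, edgeR adjusted p = 0.111). Mki67 had 198, 260 and 365 CPM against 188, 220 and 270 CPM, and Top2a 469, 517 and 767 CPM against 414, 464 and 533 CPM, both higher in 8 of 9 pairs. For Ccnb1, at 18.7, 21.2 and 37.7 CPM against 16.6, 19.8 and 27.7 CPM, and Plk1, at 23.6, 26.5 and 47.9 CPM against 18.1, 25.1 and 32.7 CPM, the medians of the lines lay close together.

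The size of the line difference rested in part on a single library. Without the TRIM21 line PBS sample numbered 11 the median log2 difference was 0.11 for the S-phase genes, with 20 of 20 higher, and 0.12 for the mitotic genes, with 18 of 20 higher, and again 0 genes passed. Without the TRIM21 line PBS sample numbered 14, 1 S-phase and 3 mitotic genes passed. Without the WT PBS sample numbered 11, 1 S-phase gene did. The line fit of all 18 samples called 6.18% of all genes. The shares of all genes in the fits without 1 sample are not given here, so their counts cannot be set against them. Within the numbers 10, 11 and 14, fitted alone with 3 samples per line, the medians were 0.090, 0.23 and 0.23 for the S-phase genes and 0.17, 0.35 and 0.098 for the mitotic genes, and 0 of the 40 passed in each, where 2.64%, 0.406% and 2.11% of the genes tested passed. By treatment the medians were 0.39 after PBS, 0.060 after BSA and 0.085 after IgG for the S-phase genes, and 0.32, 0.21 and 0.14 for the mitotic genes, with 0 of the 40 passing in any, where 1.71%, 0.848% and 0.774% of all genes passed. Of the S-phase genes 13 had an unadjusted p under 0.05 after PBS, 0 after BSA and 1 after IgG. These tests by treatment are on group means. With the number as a block, 7 S-phase and 3 mitotic genes passed after PBS, where 6.98% of all genes were called. After BSA or IgG 0 of the 40 passed in the blocked fit. Without the TRIM21 line PBS sample numbered 11 the medians after PBS were 0.17 for the S-phase and 0.051 for the mitotic genes, with 15 of 20 mitotic genes higher, and 0 S-phase genes had an unadjusted p under 0.05.

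**Figure D4:**
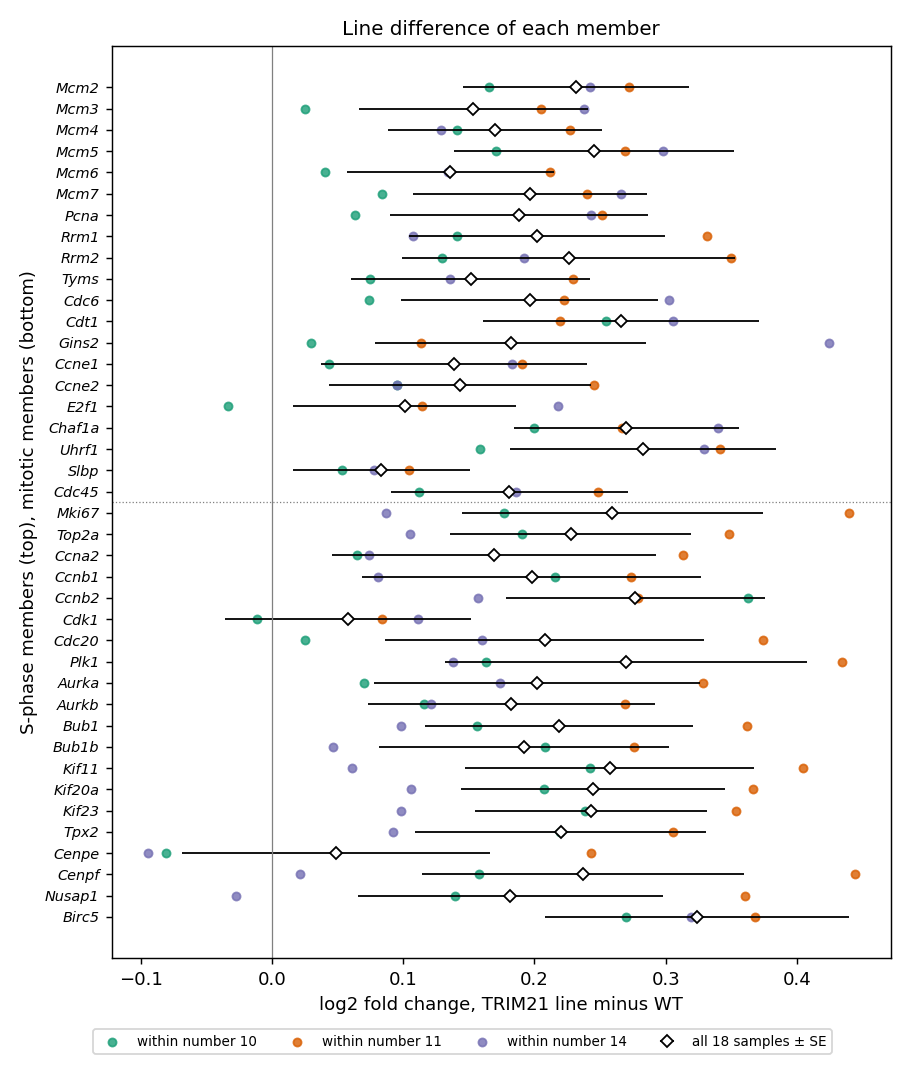
Log2 fold change of the TRIM21 line against WT (x axis) for each of the 40 genes (y axis, S-phase above the dotted line), as open diamonds ± SE from all 18 samples and as coloured points within each title number (n = 3 per line). All 40 diamonds lie to the right of 0, with medians of 0.19 and 0.22. None passed the test on group means, which leaves out the title number. With the number as a block 4 S-phase and 8 mitotic genes passed.

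The line test on group means called 6.18% of all genes, and 1.39% of all genes as higher. Among the longer lists, 44 of 44 other mitotic genes were higher in the TRIM21 line, at a median log2 difference of 0.21, and 2 rose. These were Ckap2, a spindle protein (log2 0.30), and Ncapd2, a condensin subunit (log2 0.28), with edgeR adjusted p-values of 0.021 and 0.0349. Of 42 other replication genes 40 were higher, at a median of 0.16, and 0 of 42 passed, with 14 at an unadjusted p under 0.05. In the G1 list 14 were higher and 8 lower, with 0 calls. Of the fibroblast markers 8 of 9 were lower in the TRIM21 line, at a median of -0.25, and Thy1 passed (log2 -0.29), while the neuronal tubulin Tubb3, at 6.24 to 20.1 CPM, was higher (log2 0.65), with edgeR adjusted p-values of 0.0207 and 0.0134. The summed fibroblast markers ranged from 16485 to 28308 CPM in the TRIM21 line and from 24028 to 32281 CPM in WT, and their part in the line difference was not tested.

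The treatment comparisons asked whether an electroporated antibody, or another protein, goes with a change in these genes. In none of the 6 comparisons was any gene called by edgeR (0% of 12140), by limma-voom or by DESeq2. At an unadjusted p under 0.05 there were 4 S-phase genes and 1 mitotic gene for IgG against PBS and 1 S-phase gene for BSA against PBS in the TRIM21 line, and 0 of the 40 in the other 4 comparisons. The 3 comparisons within a line share samples.

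In the TRIM21 line most of the 40 genes had lower fitted means after either protein than after PBS. Cdc45, the S-phase gene with the smallest p for IgG against PBS, had 78.3, 105 and 68.4 CPM after PBS, 76.9, 68.4 and 55.6 CPM after BSA and 66.3, 67.7 and 62.7 CPM after IgG, in the order of the numbers 10, 11 and 14. All 3 PBS values lay above all 3 IgG values, by far the most in the sample numbered 11, and the PBS and BSA values overlapped. The log2 difference of IgG against PBS was -0.36 (SE 0.16, n = 3 each, edgeR adjusted p = 0.724). Cdk1, the mitotic kinase, had 198, 287 and 188 CPM after PBS, 196, 197 and 147 CPM after BSA and 157, 165 and 166 CPM after IgG. All 3 IgG values lay below all 3 PBS values. Its log2 differences were -0.46 for IgG against PBS (SE 0.16, n = 3 each, edgeR adjusted p = 0.724) and -0.32 for BSA against PBS (SE 0.16, adjusted p = 0.841). Ccne2 had 73.5, 90.2 and 58.2 CPM after PBS and 65.5, 58.0 and 43.8 CPM after BSA, with a log2 difference of -0.41 (SE 0.17, n = 3 each, edgeR adjusted p = 0.841).

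Over the sets, IgG against PBS in the TRIM21 line had a median log2 difference of -0.25 for the S-phase genes, with 20 of 20 lower, and of -0.23 for the mitotic genes, with 19 of 20 lower, against 0.0080 over all genes tested. BSA against PBS had -0.27 and -0.16, with 20 of 20 and 16 of 20 lower. Without the TRIM21 line PBS sample numbered 11 the medians were -0.063 and 0.064 for IgG against PBS and -0.047 and 0.12 for BSA against PBS, so that the mitotic medians changed sign. Without it 14 of 20 mitotic genes were higher for IgG and 19 of 20 for BSA, and 16 of 20 S-phase genes were lower for each. IgG against BSA, which does not use that sample, gave -0.012 and -0.097, which were 0.078 without the BSA sample numbered 10 and 0.071 without that numbered 11. Its genes with the smallest p were Cdt1, a licensing factor (log2 0.19), and Kif23, a cytokinesis kinesin (log2 -0.15). Cdt1 had 53.1, 40.8 and 51.6 CPM after BSA and 65.0, 54.8 and 46.5 CPM after IgG, and Kif23 58.9, 73.3 and 57.9 CPM and 55.9, 63.4 and 51.6 CPM, and the groups overlapped.

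In the WT line the medians lay nearer to 0. They were 0.016 for the S-phase and -0.060 for the mitotic genes in IgG against PBS, -0.072 and -0.028 in IgG against BSA and 0.078 and -0.034 in BSA against PBS. Each of these 6 medians changed sign when a single sample was left out. That of the S-phase genes in IgG against PBS, for example, was -0.13 without the WT PBS sample numbered 14. Pcna had the smallest p of the S-phase genes in both IgG comparisons, with 205, 183 and 139 CPM after PBS, 209, 179 and 157 CPM after BSA and 164, 142 and 132 CPM after IgG. The IgG values were the lowest for each number, but the groups overlapped. The log2 differences were -0.27 against PBS (SE 0.17, n = 3 each, edgeR adjusted p = 1) and -0.31 against BSA (SE 0.17, adjusted p = 0.741). Cenpe had 30.7, 34.6 and 43.6 CPM after PBS, 28.03, 36.1 and 25.9 CPM after BSA and 27.4, 31.8 and 29.4 CPM after IgG, and the smallest p of the mitotic genes for IgG and for BSA against PBS (log2 -0.30 and -0.28, SE 0.20 for both). Cdk1 had it for IgG against BSA, with 168, 181 and 142 CPM after IgG and 190, 220 and 159 CPM after BSA (log2 -0.21). Cdt1 was the S-phase gene with the smallest p for BSA against PBS, with 48.0, 54.7 and 49.0 CPM after BSA and 48.2, 50.9 and 30.1 CPM after PBS (log2 0.23). The lowest PBS value of Cdt1 was that of the sample numbered 14.

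**Figure D5:**
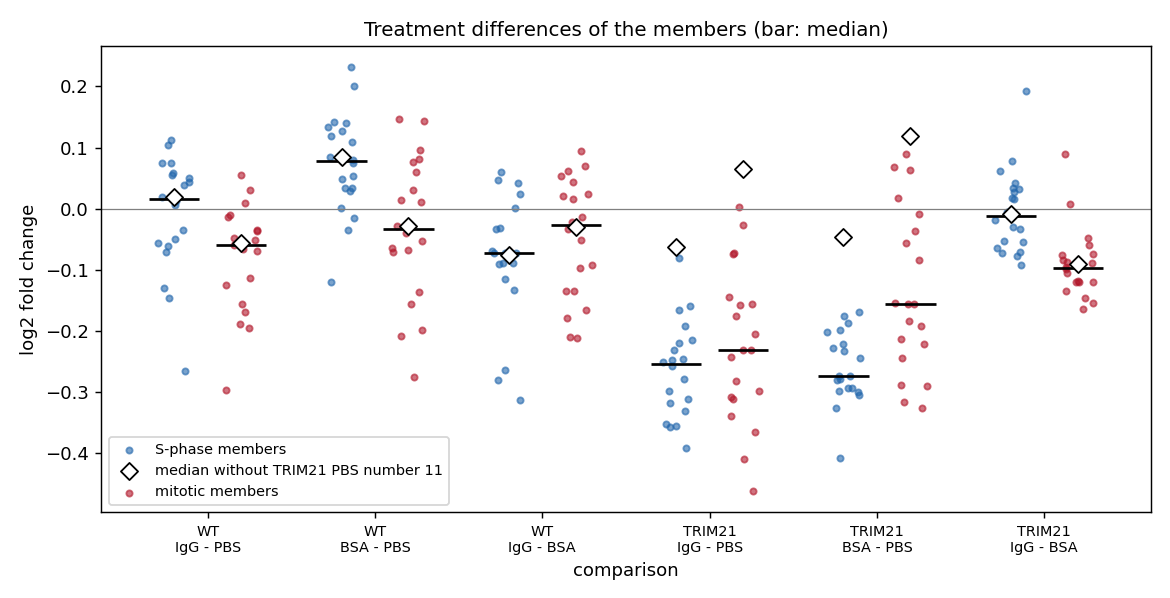
Log2 fold change (y axis) of each S-phase (blue) and mitotic (red) gene in the 6 treatment comparisons (x axis), n = 3 samples per group, with bars at the median and open diamonds at the median after leaving out the TRIM21 line PBS sample numbered 11. In the TRIM21 line the medians against PBS move from -0.25 and -0.23 to -0.063 and 0.064 for IgG, and from -0.27 and -0.16 to -0.047 and 0.12 for BSA.

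Whether a treatment difference differed between the lines was tested by the interaction, which called 0 of 12140 genes by edgeR, limma-voom and DESeq2 for each of the 3 treatment pairs, with 0 of the 40 genes at an unadjusted p under 0.05. The difference between the lines in BSA against PBS had a median of -0.33 for the S-phase genes, with 20 of 20 below 0, and of -0.10 for the mitotic genes. For IgG against PBS it was -0.29 and -0.18. Without the TRIM21 line PBS sample numbered 11 these medians were -0.13 and 0.12 for BSA and -0.080 and 0.094 for IgG. For IgG against BSA they were 0.037 and -0.071.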

How the data were processed

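PolyA RNA was measured in 18 samples, 3 in each of 6 combinations of line and treatment. The deposited values are unnormalized read counts, listed by gene symbol, as the authors made them. The submitters' processing notes name bcl2fastq 2.19.1.403, FastQC 0.11.5, STAR 2.5.1b, HTSeq 0.6.0, DESeq2 1.6.3 and the build mm10, with no role for each. The annotation and strand setting of the counting are not given in the sources used here. Reads placed at several positions or over several genes are listed apart from the gene counts, so near-identical copies are counted from distinct sequence only.

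The main tests used edgeR 4.0.16 (R 4.3.3). The filter on low counts was filterByExpr at 10 reads per sample and 15 in total, and TMM factors ran from 0.977 to 1.03. Lines, treatments and interactions were tested with glmQLFit and glmQLFTest on 1 mean per group over 18 samples. Title numbers were tested with group and number in the model. P-values were adjusted by Benjamini-Hochberg over all 12140 genes tested, with a threshold of 0.05. Standard errors come from the quasi-likelihood F statistic. Set levels use log2 CPM with a prior count of 2. Pairs of samples of a group differed by more than counting noise (chi-square over its degrees of freedom 11.0 to 85.9). Positions, lengths and overlaps are from GENCODE M21 (GRCm38) by symbol, and promoters from RefSeq. The procedure was tested on simulated counts with known changes. For the line test these held no title-number effect, so that check does not cover the setting of these data.

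The members, gene lists and tests were chosen with earlier results of these data known. All 40 genes are accounted for. Full values are given for up to 6 genes per set with the smallest adjusted p under 0.05 in the line or number test, for 5 preset genes per set, and for the gene of each set with the smallest p in each treatment comparison. Of the other lists up to 3 genes per test are named. Chaf1a and Ccnb2 were named after their values were seen, as the smallest p of the line test. Alternatives were DESeq2 size factors, other filters on low counts, limma-voom (limma 3.58.1), the DESeq2 1.42.0 test, the number as a block, only the groups compared, an additive model and leaving out each sample. Fits of each line alone were added after seeing the data.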

Additional observations from a re-analysis of the deposited data

Results flagged for a closer look

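In 61 sets of 6 or 9 samples, the gap of the highest or lowest sample to its nearest neighbour was compared with Dixon's 95% critical value, and 10 sets had a sample beyond it. The sets reuse the same 18 libraries, and some of their genes were chosen by the number test. The count of 10 can therefore not be set against a rate from chance. Of the 10 sets, 9 came from a single library, the TRIM21 line PBS sample numbered 11. Its S-phase set level, 0.587 on the log2 scale, stood apart both among the 6 samples numbered 11 and among the 9 samples of the TRIM21 line. In the same library the fibroblast markers were at -0.83 on that scale, and the 3 tested markers of other cell types at 0.74. Among the samples numbered 11 it also stood apart for the nucleotide synthesis gene Tyms at 105.8 CPM, the helicase genes Cdc45 at 105.1 CPM and Mcm5 at 384.2 CPM, the clamp gene Pcna at 253.2 CPM and the cyclin gene Ccne2 at 90.2 CPM. Of the mitotic genes it stood apart for Aurka at 71.1 CPM and Birc5 at 143.3 CPM. The WT line PBS sample numbered 14 was the lowest of the samples numbered 14 for Plk1, at 18.1 CPM. The causes were not tested.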

How the results depend on the processing

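Directions of the set medians were kept where all samples entered, and 0 genes passed in the treatment and interaction comparisons under every alternative run. With the DESeq2 test the line difference called 1 S-phase gene, the number test 12 S-phase genes, number 14 against 10 1 mitotic gene and number 14 against 11 11 S-phase genes. The last count was 4 with DESeq2 size factors and 4 with the additive model. In each line alone 0 S-phase and 0 mitotic genes were called between numbers, overall and in each pair, and the mitotic median for number 14 against 11 was -0.53 in the TRIM21 line and -0.29 in WT. The 9 samples of those fits are part of their construction.

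Leaving out 1 sample gave 0 to 1 S-phase and 0 to 3 mitotic calls between lines, 1 to 9 S-phase and 16 to 20 mitotic calls over the numbers, 7 to 17 mitotic calls for number 11 against 10, 1 to 8 S-phase and 0 to 1 mitotic calls for 14 against 10, and 0 to 9 and 7 to 20 for 14 against 11. Medians ran from -0.37 to 0.064 for mitotic genes in IgG against PBS in the TRIM21 line, and from -0.36 to -0.047 (S-phase) and -0.31 to 0.12 (mitotic) in BSA against PBS. The interaction medians ran from -0.41 to -0.080 and -0.35 to 0.094 for IgG against PBS, and from -0.45 to -0.13 for S-phase genes in BSA against PBS. The cause was not tested.

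The labels do not say that the title numbers mark pairs, and the main line, treatment and interaction tests left them out. Spread between numbers therefore counted as error in those tests, which can keep a difference from passing. Over 45 pairs of samples with the same number, the correlation of deviations from group means averaged 0.218, against -0.109 for other pairs. It ran from -0.32 to 0.58, with 32 over 0.1, and 16 of 18 samples correlated best with their own number. With the number as a replicate block the line difference called 4 S-phase genes (Chaf1a, Mcm2, Rrm2, Uhrf1), 8 mitotic genes (Birc5, Ccnb2, Kif11, Kif20a, Kif23, Mki67, Top2a, Tpx2) and 1462 genes in all, 526 of them higher, against 750 and 169 without it. After PBS alone the blocked line difference called 7 S-phase genes (Cdc45, Chaf1a, Mcm5, Mcm7, Rrm1, Rrm2, Uhrf1) and 3 mitotic genes (Aurka, Aurkb, Birc5), where 6.98% of all genes were called, and after BSA or IgG 0 of the 40. DESeq2 called 1040 genes, 316 higher. For number 11 against 10 edgeR called 461 genes and DESeq2 754, and for 14 against 11 edgeR called 635, the additive model 394 and DESeq2 1043. Each line alone called 0 to 65 genes per pair of numbers. The number of samples, 3 per group, limits the precision, and a difference that did not pass is not shown to be absent.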
